A study of Mus musculus with 4 samples.

Results

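Glypicans and syndecans are the cell-surface carriers of heparan sulfate, and 9 of them were followed across 4 lines of mouse embryonic fibroblasts (MEFs), cells grown out of embryos. The members were 5 glypicans (Gpc1, Gpc2, Gpc3, Gpc4 and Gpc6) and 4 syndecans (Sdc1, Sdc2, Sdc3 and Sdc4). They were found by gene name among the array's probes that are not controls, which gave 15 of 41174 probes, 7 for glypicans and 8 for syndecans. The family was picked because Gpc4 had a lower signal in both Ip6k1-/- lines. The difference between genotypes is therefore given for the members as a description, with its error and with no p-value for any probe. Counts of member probes under a p limit are set beside those of all probes, and nothing is read from them. Ip6k1 encodes a kinase that makes inositol pyrophosphates from inositol hexakisphosphate.

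The study compared 2 Ip6k1+/+ with 2 Ip6k1-/- MEF lines to ask which transcripts differ when the kinase is missing. The embryos were littermates at E14 from 1 mating of heterozygous parents, each line came from 1 embryo, and each was hybridized once, so a line, an embryo and an array cannot be told apart. All 4 lines carried SV40 large T antigen, which had been used to immortalise them, and were harvested while growing exponentially without further treatment. Cells of each line were measured in bulk, so fewer cells with a transcript and less of it per cell cannot be told apart. Values are the log2 signal of a probe minus the 75th percentile of its array, so 0 marks that percentile, and levels of different probes are not compared with each other. The fit covered the 21572 probes whose signal in 1 or both genotypes was well above background in each of its lines. The targeted gene checked the labels. Its probe A_51_P213766 stood at 0.35 and 0.39 for Ip6k1+/+, while neither Ip6k1-/- array had it well above background, so that it was at least 34.0-fold higher in Ip6k1+/+ (adjusted p = 0.0355, limma with Benjamini-Hochberg adjustment). Probe A_52_P413035, which overlaps it, was at least 32.7-fold higher with the same adjusted p. The third probe, A_51_P103718, was well above background in every line, with 2.46 and 2.61 for Ip6k1+/+ and -1.98 and -1.23 for Ip6k1-/-, 17.5-fold lower (limma adjusted p = 0.367).

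Glypicans are attached to the outer leaflet of the plasma membrane by a glycosylphosphatidylinositol anchor, while syndecans span the membrane and end in a short cytoplasmic tail. Both bear long heparan sulfate chains, whose sulfated stretches bind growth factors, morphogens, chemokines and fibronectin and present them to their receptors. In fibroblasts, syndecan-4 acts with integrins at focal adhesions on fibronectin, and glypicans are best known for tuning Wnt, Hedgehog, BMP and FGF signalling.

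The probes behind the results are shown 5′ to 3′ as the array files give them, because each value belongs to 1 stretch of the transcript and probes of a gene can differ. Every member probe is 60 bases long. For Gpc3 and Gpc4 the first 30 bases are printed. The Gpc4 probes lie 2059 bases apart on the X chromosome, at chrX:49406388-49406447 and chrX:49404329-49404388 in the mm9 build named in the file headers. The Gpc3 probe lies at chrX:49625740-49625799, and all 3 probes are on the minus strand.
Gpc4 A_51_P252725: tgttctgcgtggctagcagtgtaggtacag
Gpc4 A_52_P480532: ttcctttttagcttagactgctattacttt
Gpc3 A_52_P23225: aaatggtatctttatgaggatggtaaattt

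Both Gpc6 probes are printed whole, since they gave like differences from places 11109 bases apart on chromosome 14, plus strand. They lie at chr14:118375138-118375197 and chr14:118364029-118364088 (mm9), and in each 1 of the 3 reading frames holds no stop codon.
Gpc6 A_51_P372112: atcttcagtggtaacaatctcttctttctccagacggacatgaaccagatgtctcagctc
Gpc6 A_52_P224829: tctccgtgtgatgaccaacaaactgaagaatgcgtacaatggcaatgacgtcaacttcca

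The last sequence is that of a syndecan-3 probe, shown because it was the 1 member probe with no usable signal: on no array was it well above background. The files give it no genome position. Capitals mark 5 codons, those of the conserved end of the syndecan tail and the stop codon, after which 11 further bases follow. That end of the tail binds PDZ domains of cytoplasmic partners.
Sdc3 A_51_P347494: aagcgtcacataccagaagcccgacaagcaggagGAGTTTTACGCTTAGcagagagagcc

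The other members map elsewhere, with the probes of Gpc1 on chromosome 1, Gpc2 on 5, Sdc1 on 12, Sdc2 on 15, the mapped Sdc3 probes on 4 and Sdc4 on 2. All 9 genes had a probe that entered the fit. Of the 15 probes, 14 were well above background on all 4 arrays, none was saturated, and the syndecan-3 probe above was left out. No member probe had a limma adjusted p at or under 0.05, where 3 of all 21572 probes (0.0139%) did. An unadjusted limma p under 0.05 was found for 2 member probes (3.34% of all probes). These were the 2 probes of Gpc4, the gene for which the family was picked. The signal was at least 2-fold lower in Ip6k1-/- on 5 member probes of 3 genes, Gpc3, Gpc4 and Gpc6, and at least 2-fold higher on 0. Over all probes these shares were 4.11% and 1.84%. The lines of the genotypes did not overlap on 4 probes, those of Gpc4 and Gpc6, and all 4 were lower in Ip6k1-/-. Over all probes, 12.6% were lower and 18.8% higher without overlap. The median difference was -1.14 over the 7 glypican probes, -0.23 over the 7 syndecan probes and 0.05 over all probes tested. Since the family was chosen on this contrast, nothing is read from these counts.

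**Figure D1:**
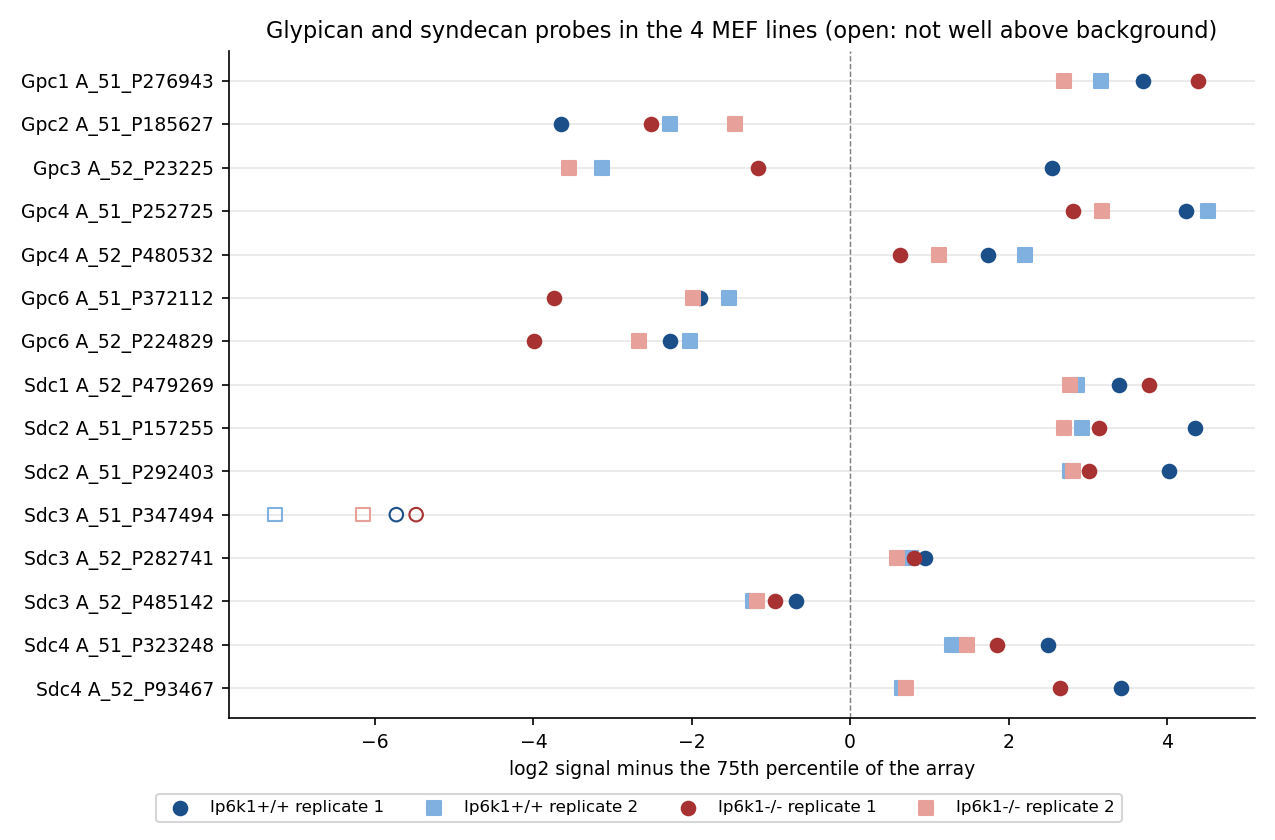
Log2 signal minus the 75th percentile of the array (x axis) for each of the 15 glypican and syndecan probes (y axis). Each point is 1 MEF line, blue for Ip6k1+/+ and red for Ip6k1-/-, circles for replicate 1 and squares for replicate 2, and open symbols were not well above background. On both Gpc4 probes the blue points lie above the red ones, while on the Gpc3 probe Ip6k1+/+ replicate 1 stands at 2.55 and the other lines between -3.55 and -1.16.

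Gpc4 encodes glypican-4, a carrier of heparan sulfate that shapes Wnt and FGF signalling and that is shed from adipocytes. Probe A_51_P252725 read 4.24 and 4.52 for Ip6k1+/+ replicates 1 and 2 and 2.82 and 3.18 for the Ip6k1-/- replicates. The lower Ip6k1+/+ line was 1.06 above the higher Ip6k1-/- line, so the genotypes did not overlap. The mean difference was -1.38 on the log2 scale (standard error 0.23), or 2.60-fold lower in Ip6k1-/-, and the SD was 0.20 over the 2 Ip6k1+/+ lines and 0.26 over the 2 Ip6k1-/- lines.

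The second Gpc4 probe, A_52_P480532, read 1.74 and 2.21 for Ip6k1+/+ and 0.63 and 1.12 for Ip6k1-/-. Again no lines overlapped, with a gap of 0.62. Its difference was -1.10 (standard error 0.30), or 2.15-fold lower. The order of the 4 lines was the same on both probes, with Ip6k1-/- replicate 1 lowest and Ip6k1+/+ replicate 2 highest. Lines of a genotype were 1.21- to 1.40-fold apart on the Gpc4 probes, which is less than the difference between genotypes. The family was picked for Gpc4 being lower in both Ip6k1-/- lines, so nothing is read from this. With 1 line left out at a time, the differences ran from -1.56 to -1.20 on the first probe and from -1.35 to -0.86 on the second.

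Gpc3 encodes glypican-3, an inhibitor of Hedgehog signalling whose loss causes an overgrowth syndrome in people. It had the largest mean difference of the members, and also the largest spread. Its probe read 2.55 and -3.13 for Ip6k1+/+ and -1.16 and -3.55 for Ip6k1-/-. The genotypes overlapped, and the 2 replicate 1 lines were both above the 2 replicate 2 lines. The Ip6k1+/+ lines were 51.1-fold apart and the Ip6k1-/- lines 5.27-fold. The difference of -2.07 (standard error 2.02) was about as large as its error. It reversed to 0.77 without Ip6k1+/+ replicate 1.

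Gpc3 and Gpc4 are neighbours on the X chromosome, with their probes 219352 bases apart. Sex-linked transcripts differed between the lines of each genotype. Xist, the RNA that coats the inactive X chromosome, read 3.55 for Ip6k1+/+ replicate 1 and 3.65 for Ip6k1-/- replicate 2, and the other two lines had no signal of it well above background. The Y-linked Eif2s3y read 0.89 for Ip6k1+/+ replicate 2 and 1.16 for Ip6k1-/- replicate 1, with no signal well above background in the lines with Xist. Each genotype thus held 1 line of each kind. Among the lines with Xist, Ip6k1-/- minus Ip6k1+/+ was -1.06 and -0.62 on the Gpc4 probes, and among the lines with Eif2s3y it was -1.70 and -1.58. Since the Gpc4 lines did not overlap between genotypes, any such pair of lines gives a value below 0. Nothing is therefore read from the sign for Gpc4. For Gpc3 the same differences were -6.10 and 1.97, of opposite sign. With 1 line of each genotype in each kind, these values have no replicate check.

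The genes around the pair were read in the same lines. The RefSeq table (GRCm38.p6) lists 14 other protein-coding genes within 1 Mb of Gpc3 or Gpc4, of which 13 had a probe and 6 entered the fit, on 9 probes. Their differences lay between -0.75 and 0.30, none was 2-fold and none was called by limma (smallest adjusted p = 0.993). Hs6st2, a 6-O-sulfotransferase that modifies heparan sulfate, was the 1 tested neighbour whose genotypes separated: 2 of its 3 probes were lower in Ip6k1-/- without overlap, by 0.75 and 0.49 on the log2 scale, and the third differed by 0.27. Its probe A_52_P599317 read 3.28 in both Ip6k1+/+ lines against 2.66 and 2.92 for Ip6k1-/-. The other tested neighbours, Mbnl3, Phf6, Hprt, Fam122b and Mospd1, all had lines that overlapped.

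**Figure D2:**
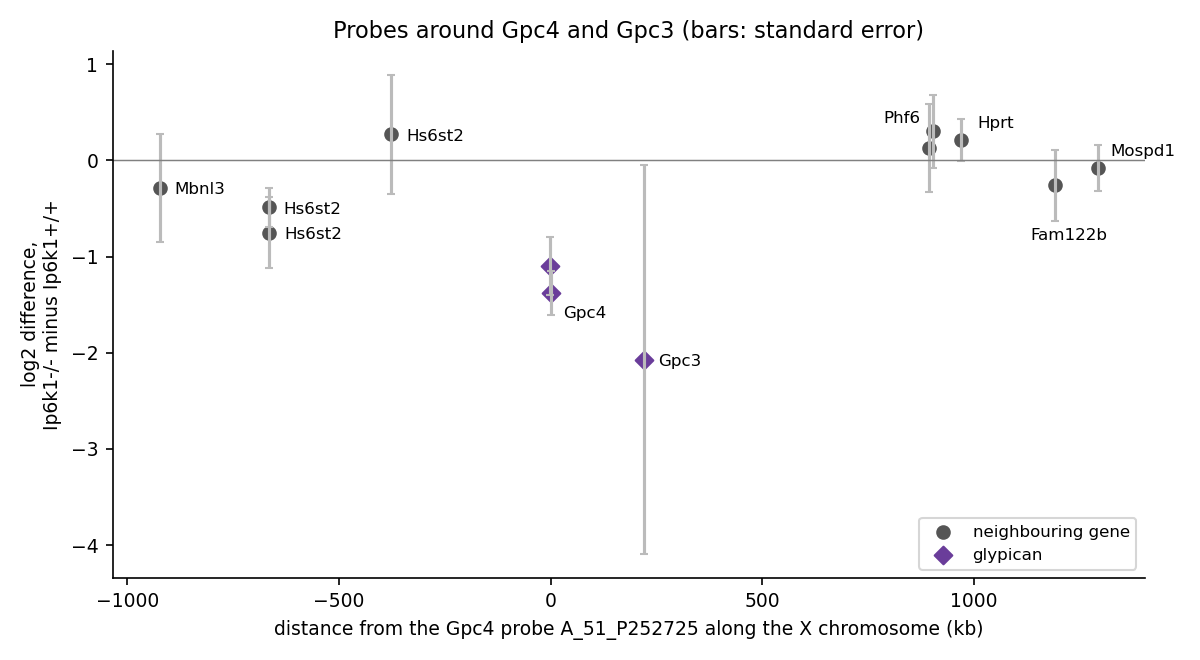
Log2 difference between Ip6k1-/- and Ip6k1+/+ MEFs (y axis, bars are standard errors) for each tested probe of Gpc4, Gpc3 and the genes within 1 Mb of them, against its distance from Gpc4 probe A_51_P252725 in kb (x axis). The Gpc4 probes lie at -1.38 and -1.10 with short bars, Gpc3 at -2.07 with a bar of 2.02 to each side, and the 9 neighbouring probes between -0.75 and 0.30.

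Gpc6 encodes glypican-6, a close relative of glypican-4 that promotes Hedgehog signalling in the growth plate. Probe A_51_P372112 read -1.90 and -1.53 for Ip6k1+/+ and -3.74 and -1.98 for Ip6k1-/-. Probe A_52_P224829 read -2.28 and -2.02 against -3.99 and -2.67. On both probes Ip6k1-/- replicate 1 was far below the other 3 lines, and Ip6k1-/- replicate 2 was just below the Ip6k1+/+ lines, by 0.08 and 0.39.

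The mean differences were -1.14 (standard error 0.65) and -1.18 (standard error 0.53). Without Ip6k1-/- replicate 1 they were -0.27 and -0.52, so 1 line carried most of the difference. They also shrank to -0.67 and -0.63 with normexp background correction, an alternative that models the background and adds an offset of 50 to every signal, which weighs most on dim probes.

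The other glypicans did not separate the genotypes. Gpc2 encodes glypican-2, known from growing axons of the developing nervous system. It read -3.65 and -2.28 for Ip6k1+/+ and -2.51 and -1.45 for Ip6k1-/-, which overlap. Its difference of 0.99 (standard error 0.64) was 1.98-fold and lay just outside the 2-fold limit, where the second Gpc4 probe lay just inside at -1.10. It was 0.55 with normexp, 0.30 without Ip6k1+/+ replicate 1, 0.45 without Ip6k1-/- replicate 2, 1.52 without Ip6k1-/- replicate 1 and 1.67 without Ip6k1+/+ replicate 2. Gpc1 encodes glypican-1, the most widely expressed glypican. It read 3.70 and 3.17 for Ip6k1+/+ and 4.39 and 2.70 for Ip6k1-/-, so that the Ip6k1-/- lines held both the highest and the lowest value. Its difference was 0.11 (standard error 0.60), and ran from -0.73 without Ip6k1-/- replicate 1 to 0.96 without Ip6k1-/- replicate 2. Gpc5, the remaining glypican of the mouse, had 2 probes, and no array had either of them well above background.

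None of the 7 tested syndecan probes separated the genotypes. Syndecan-1, best known from epithelia and plasma cells, read 3.40 and 2.86 for Ip6k1+/+ and 3.77 and 2.77 for Ip6k1-/-. The Ip6k1-/- lines lay on either side of the Ip6k1+/+ lines, and the difference was 0.14 (standard error 0.41).

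Syndecan-2, the main syndecan of mesenchymal cells, was measured by 2 probes. A_51_P157255 read 4.36 and 2.93 for Ip6k1+/+ and 3.14 and 2.70 for Ip6k1-/-. A_51_P292403, 1910 bases away, read 4.03 and 2.78 against 3.02 and 2.82. On both probes Ip6k1+/+ replicate 1 stood above the other 3 lines, which lay close together. The differences were -0.72 (standard error 0.52) and -0.49 (standard error 0.45).

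Syndecan-3, known from the nervous system and from muscle precursors, varied least. Probe A_52_P282741 read 0.95 and 0.77 for Ip6k1+/+ and 0.81 and 0.59 for Ip6k1-/-. Probe A_52_P485142 read -0.68 and -1.23 against -0.95 and -1.17. All lines overlapped, and the differences were -0.16 (standard error 0.23) and -0.10 (standard error 0.32). Every line was within 1.47-fold of the other line of its genotype on both probes.

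Syndecan-4 works with integrins in focal adhesions, and its 2 probes, 1095 bases apart, gave different spreads. A_52_P93467 read 3.42 and 0.65 for Ip6k1+/+ and 2.65 and 0.70 for Ip6k1-/-. A_51_P323248 read 2.50 and 1.29 against 1.85 and 1.47. Both probes placed the replicate 1 lines above the replicate 2 lines. The Ip6k1+/+ lines were 6.82-fold apart on the first probe and 2.31-fold on the second. The differences between genotypes, -0.36 (standard error 1.12) and -0.23 (standard error 0.46), were within those spreads. On the first probe the difference was 1.02 without Ip6k1+/+ replicate 1 and -1.75 without Ip6k1+/+ replicate 2.

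**Figure D3:**
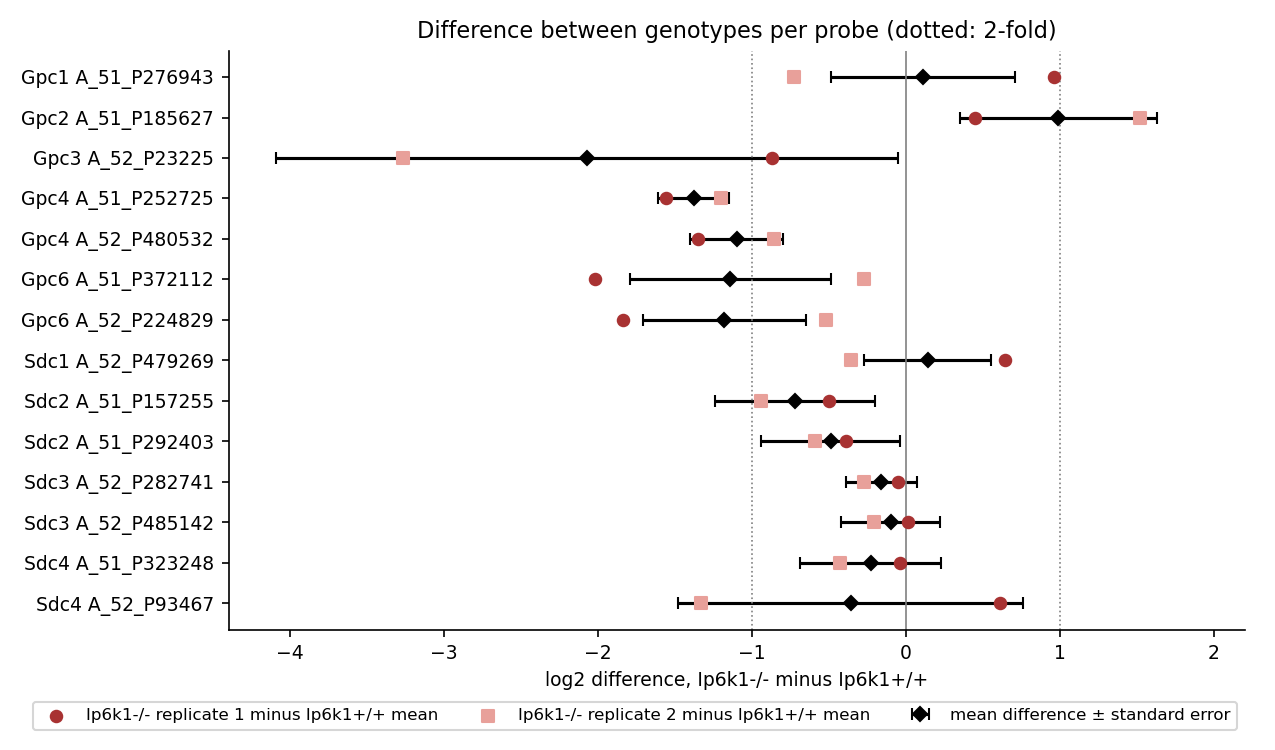
Log2 difference between Ip6k1-/- and Ip6k1+/+ MEFs (x axis) for the 14 probes that entered the fit (y axis). Diamonds are mean differences with their standard errors, red circles and pink squares are each Ip6k1-/- line minus the Ip6k1+/+ mean, and dotted lines mark 2-fold. Both Ip6k1-/- lines lie near the mean on the Gpc4 probes, whereas on the Gpc6 probes replicate 1 lies at -2.02 and -1.84 and replicate 2 at -0.27 and -0.52.

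Lines of the same genotype also differed from each other. This measure is not free of the choice of members, since Gpc4 being lower in both Ip6k1-/- lines depends partly on it. The Ip6k1+/+ lines were at least 2-fold apart on 6 of the 14 probes, against 13.7% of all probes, and the Ip6k1-/- lines on 7, against 11.2%. Replicate 1 was above replicate 2 in both genotypes on 9 probes: all 7 syndecan probes, Gpc1 and Gpc3. Over all probes this share was 27.9%. On the probes of Gpc2, Gpc4 and Gpc6, replicate 2 was the higher in both genotypes. The share of all probes with that order was not computed, so nothing is read from it. Probes of a gene share their transcript, so that the 14 probes are not 14 independent measurements, and the labels do not say that a replicate number marks anything shared between genotypes.

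**Figure D4:**
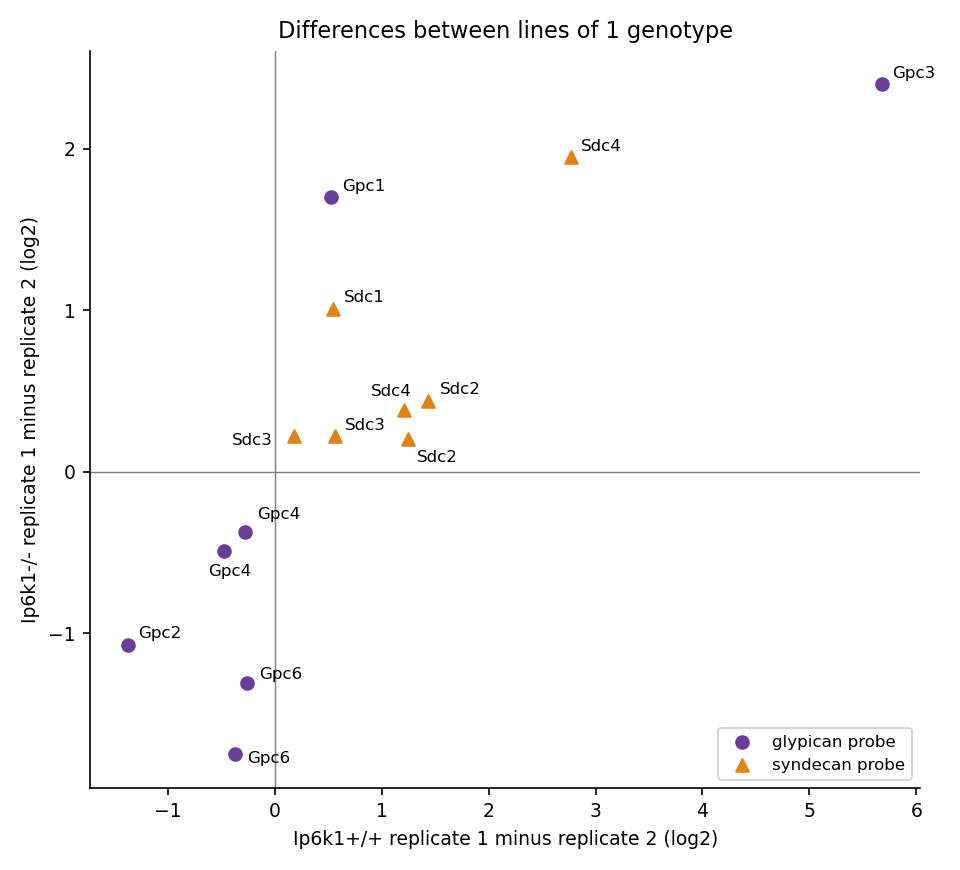
Ip6k1+/+ replicate 1 minus replicate 2 (x axis) against Ip6k1-/- replicate 1 minus replicate 2 (y axis), both in log2 units, for the 14 tested probes, with circles for glypicans and triangles for syndecans. All 7 syndecan probes, Gpc1 and Gpc3 lie in the upper right corner, and the probes of Gpc2, Gpc4 and Gpc6 in the lower left. The share of all probes in the lower left was not computed.

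The enzymes, cargo and partners of these proteoglycans were read from lists covering 92 other genes, of which 89 were on the array and 70 entered the fit. Limma called 0 of the 70 (smallest adjusted p = 0.993, and 3 with an unadjusted p under 0.05), where it called 0.00698% of all gene names. Of the 70 genes, 7 were at least 2-fold lower in Ip6k1-/- and 3 at least 2-fold higher by the measured values, against 4.64% and 1.82% of all gene names. These include Hgf, Lpl and Hs3st3a1, which were not well above background in every line. Among genes well above background on all 4 arrays, 5 were lower and 2 higher. The lines of the genotypes did not overlap for 10 genes that were lower and 10 that were higher, against 13.2% and 18.1% of all gene names. Their median difference was -0.05, and that of all gene names 0.04.

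Of the machinery that builds the chains, the linker and polymerase genes gave small differences. All 8 genes of the linker and of chain initiation entered the fit, with a median of 0.01 and none at 2-fold. Of the polymerases, which lengthen the chain, Ext1 differed by 0.29 (standard error 0.23), Ext2 by -0.32 (0.25), Extl2 by 0.20 (0.22) and Extl3 by 0.19 (0.52). No array had Extl1 well above background. Among sulfation and epimerization enzymes 13 of 18 on the array entered the fit, with a median of -0.04 and 2 at least 2-fold higher. These were the paired 3-O-sulfotransferases. Hs3st3b1 read -2.43 and -1.18 for Ip6k1+/+ and 1.63 and -1.03 for Ip6k1-/-, which differed by 2.10 (standard error 0.99). Hs3st3a1 differed by 2.60 (standard error 1.49) and overlapped, with -1.27 and -3.97 for Ip6k1-/- and -3.44 for Ip6k1+/+ replicate 2, while Ip6k1+/+ replicate 1 had no signal well above background. Both were highest in Ip6k1-/- replicate 1, the line in which Gpc6 was lowest.

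Enzymes that trim or break down the chains were next. Sulf1, a sulfatase that removes 6-O-sulfate outside the cell, read 4.92 and 1.14 for Ip6k1+/+ and 4.83 and 1.57 for Ip6k1-/-, with replicate 1 high in both genotypes as for the syndecans. Sulf2 differed by -0.48 (standard error 0.44). All 8 lysosomal enzymes that degrade heparan sulfate entered the fit and had a value below 0 for the difference, with a median of -0.28, though 0 were called. Over the 70 tested genes of all lists, 39 were below 0 and 31 above. The share of all gene names below 0 was not computed, so nothing is read from the count of lysosomal enzymes. With 1 line left out at a time, between 5 and 8 of them stayed below 0, and the other probes of Ids, iduronate sulfatase, differed by 1.01 and -0.73, and that of Gusb by 0.12. Naglu, which removes N-acetylglucosamine, was the 1 past 2-fold: it read 1.16 and 0.99 for Ip6k1+/+ and 0.46 and -0.42 for Ip6k1-/-, which differed by -1.06 (standard error 0.36). Of the 8 tested genes listed under release from the cell surface, Furin, Pcsk6 and Pcsk7 among them, the gelatinase Mmp2 had a difference of -2.22 (standard error 1.42). It read 3.60, 3.05 and 3.24 in 3 lines and -1.04 in Ip6k1-/- replicate 2, so this difference rests on 1 line.

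All 10 cytoplasmic partners of syndecans entered the fit, with a median of 0.07. Sdcbp2 encodes syntenin-2, a PDZ protein related to syntenin-1, which binds the tail end shown in the syndecan-3 sequence. It read -1.28 and -0.70 for Ip6k1+/+ and 1.41 and 0.71 for Ip6k1-/-. No lines overlapped, and the difference was 2.05 (standard error 0.37), 4.15-fold higher, with a limma adjusted p of 0.993. Syntenin-1 itself, Sdcbp, read 5.40 and 5.19 against 5.14 and 5.73, which overlap.

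Secreted factors that bind heparan sulfate had a median of -0.68 over 11 tested genes, with 4 at least 2-fold lower by the measured values, of which Cxcl12 and Ptn were well above background in all 4 lines and Hgf and Lpl were not. Hgf, the ligand of the Met receptor, read -4.75 and -4.95 for Ip6k1+/+, and neither Ip6k1-/- line had it well above background, which at this signal gives no lower bound above 1-fold. Cxcl12, a chemokine, read 5.16 and 5.90 for Ip6k1+/+ and 3.47 and 5.16 for Ip6k1-/-. Pleiotrophin, Ptn, read 3.28 and 6.03 against -0.68 and 5.48, and lipoprotein lipase, Lpl, read -2.70 and 1.04 against 1.93 in Ip6k1-/- replicate 2 and no signal well above background in replicate 1. All 3 were lowest in Ip6k1-/- replicate 1. The basement membrane proteoglycan Col18a1 was low in the other Ip6k1-/- line, with 0.30 there and 2.85 to 3.14 elsewhere. Col18a1, Mmp2, Cxcl12, Ptn, Lpl, Hs3st3a1 and Sdcbp were named after their values were seen.

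**Figure D5:**
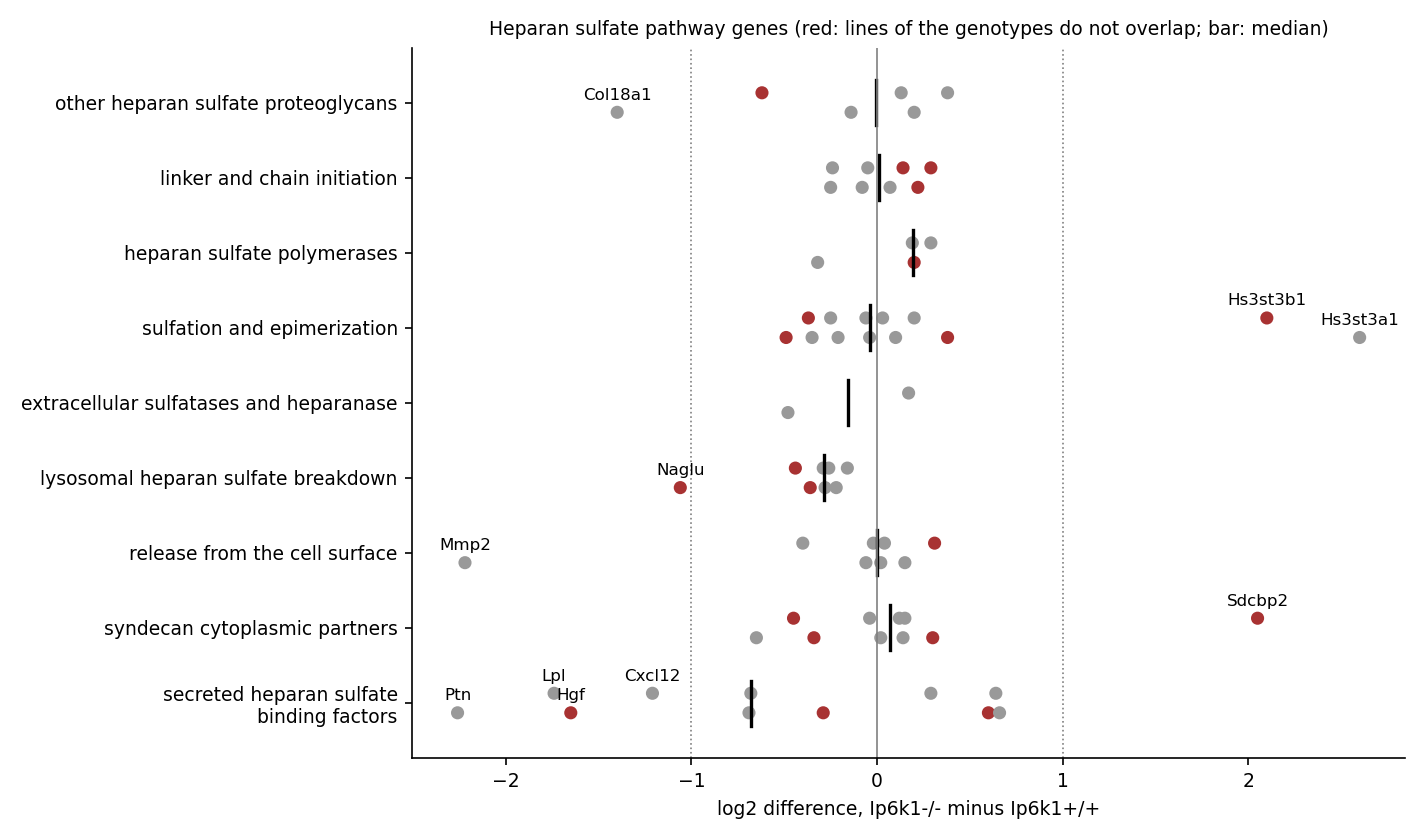
Log2 difference between Ip6k1-/- and Ip6k1+/+ MEFs (x axis) for the 70 tested genes of 9 heparan sulfate lists (y axis), 1 point per gene. Red points have lines that do not overlap between genotypes, black bars are list medians, dotted lines mark 2-fold, and genes past 2-fold are named. Below 0 lie 39 of the 70 genes, among them all 8 lysosomal genes with all 4 lines in the fit, and Sdcbp2, Hs3st3b1 and Hs3st3a1 lie above 2.

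The fibroblast label was checked against markers. All 10 fibroblast markers entered the fit, and their summed level, in multiples of the array's 75th percentile signal, was 436 and 419 for Ip6k1+/+ and 400 and 369 for Ip6k1-/-, with 3 of the 10 saturated on at least 1 array, so that no change is read from the sum. Of the 10 differences, 6 were below 0 and 4 above, with a median of -0.47. The 4 above 0 were Thy1 (1.03) and the 3 saturated markers, Col1a1 (0.05), Col1a2 (0.07) and Vim (0.07). No change is read from these 3 either, and the other tested probes of Col1a1 had differences below 0. The 6 markers below 0 were not saturated on any array. At least 2-fold lower were 4 markers (Pdgfrb, Dcn, Col3a1 and Lum), and 1 was at least 2-fold higher (Thy1). The lines did not overlap for Pdgfrb, Dcn and Col3a1. Pdgfrb, a receptor of mesenchymal cells, read 4.67 and 4.45 against 3.34 and 3.39, a difference of -1.20 with a standard error of 0.19 (limma adjusted p = 0.795). It was thus lower in both Ip6k1-/- lines, as Gpc4 was, decorin, Dcn, read 0.99 and 1.89 against -2.09 and 0.18, and Col3a1 read 6.24 and 5.90 against 5.46 and 4.17. Their part in the Gpc4 difference was not tested. All 4 skeletal muscle markers, Pecam1, Cdh5 and Tie1 of endothelium, Ptprc of blood cells and Cdh1 of epithelium were not well above background in any line. Kdr of the endothelial list was, in every line, and read -3.66 and -3.99 against -2.94 and -1.59, higher by 1.56 with a standard error of 0.55 and no overlap (limma adjusted p = 0.993). Cd68 of the blood list was also well above background in every line, with a difference of 0.68 (standard error 0.40) without overlap. Krt18 of the epithelial list and Tubb3 of the neural list were well above background in every line too. They differed by -0.85 (standard error 0.98) and 0.17 (standard error 0.74), and their lines overlapped. Krt5 and Sox2 were well above background in the Ip6k1+/+ lines only. Krt5 overlapped, while Sox2 was at least 2.53-fold lower in Ip6k1-/- (limma adjusted p = 0.993). The part of these markers in the Gpc4 difference was not tested. The summed level of the 6 epithelial markers was 0.754 and 3.14 for Ip6k1+/+ and 0.514 and 1.58 for Ip6k1-/-. The 5 neural and glial markers summed to 1.27 and 2.78 against 1.08 and 3.28, the 6 blood markers to 0.204 and 0.403 against 0.353 and 0.238, and the 5 endothelial markers to 0.132 and 0.0985 against 0.172 and 0.385.

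Other probes with a pattern like that of Gpc4 were sought by the root mean square distance over the 4 lines, after each probe's Ip6k1+/+ mean was subtracted. This uses the contrast that chose Gpc4 and is a description. The nearest gene names were Ccrl2 (distance 0.078), Mapkapk3 (0.113), TC1666890 (0.116), Cyp1b1 (0.120) and TC1637709 (0.133), of which Ccrl2 was not well above background in Ip6k1-/-. How far these genes lie from the targeted Ip6k1 gene was not looked at, and no link to Gpc4 was tested. Mapkapk3, a stress-activated protein kinase, read 0.50 and 0.54 for Ip6k1+/+ and -1.19 and -0.67 for Ip6k1-/-. Cyp1b1, a cytochrome P450, read -0.20 and -0.09 against -1.51 and -1.30. The second Gpc4 probe, at a distance of 0.212, ranked 28 among all probes tested.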

How the data were processed

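RNA of 4 MEF lines was hybridized to 1 single-colour Agilent 4x44K array each, all on 1 slide with 1 scan. The authors extracted the deposited spot intensity, linear and background-corrected, with Feature Extraction 10.5.1.1, and deposited a log2 table made in GeneSpring by shifting each array's 75th percentile. Here log2 of the intensity was taken, the 75th percentile of 43379 spots subtracted (this signal was 610.4 to 747.3 on the arrays), outlier-flagged spots left out (96 to 133 per array) and spots of a probe averaged. The share of probes well above background was 52.0% to 55.5%, and the number of arrays limits the precision. Genotypes were compared in R 4.3.3 by limma 3.58.1 (lmFit, then eBayes with a trend), and p-values were adjusted over the whole table of tested probes after Benjamini and Hochberg. List genes were taken at the probe of highest mean. Members and lists were chosen with earlier results of these data known. Named genes are all members, Ip6k1, up to 3 list genes per direction past 2-fold without overlap, all genes of lists with 5 or fewer tested, the 5 nearest to Gpc4, genes within 1 Mb, and sex-linked genes. Alternatives were each array left out in turn, a replicate block, and another background correction, normalization, filter or test. No genome was used here.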

Additional observations from a re-analysis of the deposited data

How the results depend on the processing

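With groups of 2, each value rests on few lines, and no single deviating array can be tested. Every tested member probe kept the sign of its difference under normexp, quantile normalization, the deposited log2 values and outlier spots kept. With 1 line left out, the probes of Gpc4 and Gpc6 cannot change sign, because their lines do not overlap between genotypes. Their kept sign is therefore no check. Gpc3 ran from -4.90 to 0.77 with 1 line left out, and reversed to 0.77 without Ip6k1+/+ replicate 1. The ranges of Gpc1, Sdc1, both Sdc4 probes, Sdc2 A_51_P292403 and Sdc3 A_52_P485142 also crossed 0, the widest that of Sdc4 A_52_P93467, from -1.75 to 1.02. With normexp, 3 member probes and 4 list genes were at least 2-fold lower, and with quantile normalization 1 member probe (Gpc2, 1.01, against 0.55 with normexp) was at least 2-fold higher. Without a filter on dim probes 11 list genes were at least 2-fold lower (5 with all 4 arrays well above background), and the median of all probes moved from 0.05 to 0.19. Over all probes the calls went from 3 to 0 with normexp (701 probes at an unadjusted p under 0.05 in limma), with quantile normalization (771) and with the methods' t-test (849 before adjustment), and to 1 without the filter or with the filter on all 4 arrays. The cause was not tested.

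With 1 line left out at a time, the ranges were 0 calls over all probes, 3 to 6 member probes at least 2-fold lower and 0 to 1 higher, 4 to 11 lower and 1 to 4 higher without overlap, and 4 to 9 list genes at least 2-fold lower and 3 to 7 higher. A genotype left with 1 line was assumed to vary like the other. Fewer lines overlap less by construction. Shares of all probes past 2-fold or without overlap are not given for these settings or those above. Nothing is therefore read from the member and list counts.

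The 2 genotypes share replicate numbers, and the deviations of same-numbered lines correlated at 0.48, but 2 pairs with no stated link do not pair the samples. With a replicate block, limma called 3 of all probes, 0 member probes and 0 list genes. In that fit 1765 of the 21572 probes had an unadjusted p under 0.05, among them 6 of the 14 member probes. Since the family was chosen on this contrast, nothing is read from the member count.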
